A study of Arabidopsis thaliana with 6 samples.

Results

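The 3 gibberellin receptor genes of Arabidopsis thaliana, GID1A, GID1B and GID1C, and the F-box gene SLY1 were followed across 6 Affymetrix arrays. They were chosen by name, as the receptors of the hormone and the F-box partner that acts after them. Earlier results of these data were known when the choice was made. Each was represented by 1 probe set listed for that gene alone: GID1A by that of AT3G05120, GID1B by that of AT3G63010, GID1C by that of AT5G27320 and SLY1 by that of AT4G24210. These are 4 of the 13356 genes that can be named on the array and 4 of the 22746 probe sets tested.

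Gibberellins are plant hormones that promote germination, stem growth and flowering. The GID1 proteins are soluble receptors that lie in the nucleus and cytoplasm. When a GID1 protein binds bioactive gibberellin it closes over the hormone and captures a DELLA protein, a repressor of growth and of many gibberellin-responsive genes. SLY1 is the F-box subunit of an SCF ubiquitin ligase that recognises the DELLA protein in this complex and marks it for degradation. In Arabidopsis the 3 receptors overlap in function, and plants that lack all of them are severe dwarfs.

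The seedlings were 9 days old. The first group was line HY213 after 8 h of mock treatment, the second was HY213 after 8 h of estradiol, and the third was wild type after 8 h of estradiol, with 2 arrays in each, numbered replicate 1 and replicate 2. The labels do not say what HY213 is, and it is read here as the pER22-AGL24 line, in which estradiol activates a chimeric transcription factor (XVE) that switches on AGL24, a gene for a MADS-box protein that promotes flowering. The labels name a Columbia ecotype for 5 of the samples and none for mock replicate 1, a single inducible line, and no mock-treated wild type, and the design text describes the replicates as independent pools of seedlings. Whole seedlings were used, so a lower share of a cell type and less RNA per cell cannot be told apart.

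Array medians lay between 6.95 and 7.27 intensity units, and the highest of 27 Bacillus control probe sets, used here as the background level, between 5.14 and 6.22. AGL24 read 106 and 401 in estradiol-treated HY213, and 4.60 to 5.05 on the other 4 arrays, below that background. Arrays with the same replicate number shared deviations from their group means across probe sets, with r between 0.665 and 0.822. The marker genes for seedling organs that could be measured, 2 of 6 for leaf and shoot and 2 of 3 for root, were above background on all 6 arrays, and 0 of the seed and flower markers had a probe set listed for 1 gene.

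GID1A read 31.1 and 47.3 in mock HY213, 28.1 and 48.4 in estradiol HY213, and 22.0 and 48.8 in estradiol wild type, each pair given as replicate 1 and replicate 2. The 3 replicate 2 arrays were high and nearly level, within 1.03-fold of each other, whereas the replicate 1 arrays were lower and spread over 1.42-fold. The group means were 39.2 ± 11.4 for mock, 38.3 ± 14.4 for estradiol HY213 and 35.4 ± 19.0 for estradiol wild type (SD, n = 2 for each), and every pair of groups overlapped.

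GID1B, a receptor with higher affinity for gibberellin than its relatives, read 18.3 and 27.5 in mock HY213, 23.5 and 31.9 in estradiol HY213, and 20.8 and 41.2 in estradiol wild type. The wild-type replicate 2 array was the highest and the mock replicate 1 array the lowest. In each replicate the mock array was the lowest of the 3, but the groups overlapped because the replicates differed more. The means were 22.9 ± 6.47, 27.7 ± 5.96 and 31.0 ± 14.4 (SD, n = 2 for each), in the order mock, estradiol HY213 and wild type, and no neighbours in that order differed beyond their spread.

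GID1C was the receptor closest to background. It read 7.78 and 8.77 in mock HY213, 7.34 and 7.38 in estradiol HY213, and 7.10 and 9.93 in estradiol wild type, between 1.14 and 1.88 times the highest Bacillus control of the same array. The estradiol HY213 arrays lay below both mock arrays and between the wild-type arrays. At this distance from background a difference in transcript level is compressed, so the values bear little on the size of any change.

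SLY1 read 42.9 and 57.9 in mock HY213, 48.8 and 55.4 in estradiol HY213, and 45.8 and 51.3 in estradiol wild type. The mock arrays were both the lowest and the highest of the 6, and arrays of the same replicate lay within 1.14-fold of each other in replicate 1 and within 1.13-fold in replicate 2. The group means were 50.4 ± 10.6, 52.1 ± 4.63 and 48.6 ± 3.86 (SD, n = 2 for each), and every pair of groups overlapped.

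**Figure D1:**
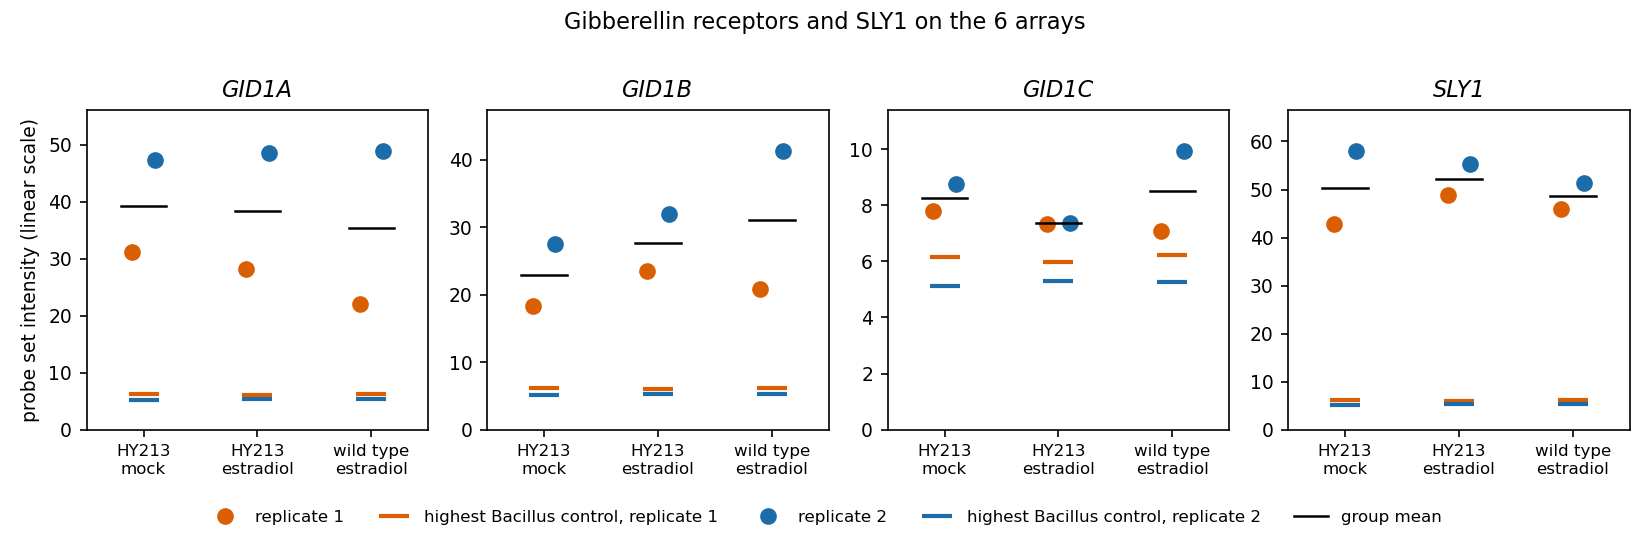
Intensity of each gene on a linear scale (y axis) in the 3 groups (x axis). Points are single arrays coloured by replicate, black bars are group means of 2 arrays, and short coloured bars are the highest Bacillus control of each array. Replicate 2 points lie above replicate 1 points in every group for GID1A, GID1B and SLY1, and GID1C lies close to the control level.

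The comparison of estradiol with mock within HY213 asks whether these genes respond when AGL24 is switched on, together with any response to estradiol itself. None of the 4 genes passed the test. The test was limma on log2(value + 16) over all probe sets, with an adjusted p threshold of 0.05. Unless a block is named, the replicate number was not in the model, so each SE includes the shift between replicates. With the block the SE fell from 0.32 to 0.12 for GID1A and from 0.24 to 0.11 for GID1B. The test without the block called 0 of 4 members, beside 0% of all probe sets (272 at an unadjusted p under 0.05). AGL24 itself was not called, at a log2 difference of 3.43 ± 0.51 (SE). With the replicate number as a block its limma adjusted p was 0.337. Of the 10 settings that did not leave out a single array it passed in 1, the block with no pseudocount (limma adjusted p 0.0264). A missing call therefore says little about a member. GID1A differed by -0.035 ± 0.32 on this log2 scale (SE), and its direction was not the same in both replicates, at 0.903 times mock in replicate 1 and 1.02 times in replicate 2. GID1B differed by 0.17 ± 0.24 (SE) and was 1.28 times mock in replicate 1 and 1.16 times in replicate 2. GID1C differed by -0.055 ± 0.067 (SE) and stood at 0.943 and 0.841 times mock. SLY1 differed by 0.045 ± 0.19 (SE) and stood at 1.14 and 0.956 times mock. The adjusted p was 1 for each of the 4.

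GID1B was thus higher within both replicates, as were 25.6% of all probe sets, and GID1C was lower within both, as were 24.2%. GID1C was the 1 member whose mock and estradiol HY213 arrays did not overlap, as was the case for 23.6% of probe sets. The median log2 difference of the 4 members was 0.0047, beside -0.00044 over all probe sets. AGL24 itself was 3.78-fold higher in the replicate 2 array of estradiol HY213 than in the replicate 1 array. In size, the differences of GID1A, GID1B and SLY1 from mock were smaller in replicate 2 than in replicate 1, and that of GID1C was larger. Each rests on 1 pair of arrays, and a relation to the level of AGL24 was not tested.

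The interval of each difference shows what the arrays could have missed. On the log2(value + 16) scale the 95% confidence interval ran from -0.80 to 0.73 for GID1A, from -0.41 to 0.76 for GID1B, from -0.22 to 0.11 for GID1C and from -0.41 to 0.50 for SLY1. With the replicate number as a block and no pseudocount, the intervals read directly as folds of intensity. They ran from 0.703 to 1.31 for GID1A, from 0.898 to 1.66 for GID1B, from 0.708 to 1.12 for GID1C and from 0.781 to 1.40 for SLY1. Without the block, and again with no pseudocount, the intervals were wider. They ran from 0.437 to 2.12 for GID1A, from 0.629 to 2.36 for GID1B, from 0.651 to 1.22 for GID1C and from 0.676 to 1.61 for SLY1. A change of GID1B of up to 1.66-fold with the block, or 2.36-fold without it, therefore lies within the interval, and no member was shown to be unaffected.

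The comparison of estradiol HY213 with estradiol wild type sets the lines against each other under the same chemical. In limma 0 of 4 members passed, beside 0% of all probe sets (176 at an unadjusted p under 0.05). AGL24 was not called here either, at a log2 difference of 3.44 ± 0.51 (SE, limma adjusted p 0.332 with the replicate block). GID1A was 1.28 times wild type in replicate 1 and 0.993 times in replicate 2, a log2 difference of 0.10 ± 0.32 (SE). GID1B was 1.13 times wild type in replicate 1 and 0.774 times in replicate 2, a difference of -0.077 ± 0.24 (SE). GID1C changed direction in the same way, at 1.03 and 0.743 times, with a difference of -0.067 ± 0.067 (SE). SLY1 was the 1 member with the same direction in both replicates, at 1.07 and 1.08 times wild type and a difference of 0.077 ± 0.19 (SE). Of all probe sets, 27.4% were higher within both replicates. The adjusted p was 1 for each of the 4, and in 0 of 4 members did the groups not overlap, against 23.2% of probe sets.

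Estradiol wild type and mock HY213 differ in line and in chemical at once. Again 0 of 4 members passed in limma, beside 0% of all probe sets (268 at an unadjusted p under 0.05). GID1B was 1.13 times mock in replicate 1 and 1.50 times in replicate 2, a log2 difference of 0.25 ± 0.24 (SE) with an unadjusted p of 0.345. With the replicate block that p was 0.0624, the smallest among the 12 member tests of the 3 comparisons, and its adjusted p was 0.850. GID1A stood at 0.705 and 1.03 times mock, a difference of -0.14 ± 0.32 (SE). GID1C stood at 0.913 and 1.13 times and SLY1 at 1.07 and 0.885 times, and neither kept its direction. In 0 of 4 members did the groups not overlap, against 22% of probe sets. GID1B was the only member that lay above mock in both estradiol groups and both replicates, a pattern that 11.9% of probe sets also had. Both comparisons with mock share the mock arrays.

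**Figure D2:**
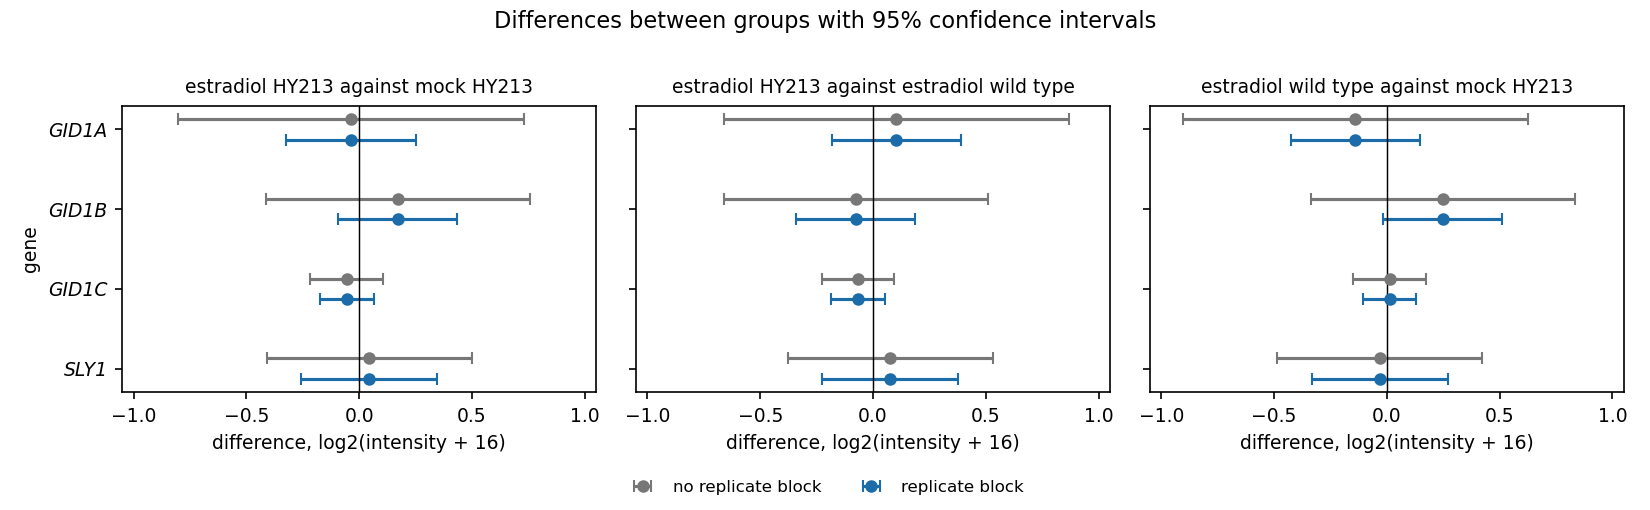
Difference between groups on the log2(intensity + 16) scale (x axis) for each gene (y axis) in the 3 comparisons. Points are limma estimates and bars their 95% confidence intervals, without (grey) and with (blue) the replicate number as a block. All 24 intervals include 0, and for every gene the interval is narrower with the block.

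For GID1A, and less clearly for GID1B, the larger variation lay between the replicate numbers. Between groups, GID1B also spread over 1.50-fold within replicate 2. GID1A and GID1B were higher on the replicate 2 arrays than on the replicate 1 arrays in all 3 groups. GID1A was 1.52-fold higher in mock HY213, 1.72-fold in estradiol HY213 and 2.22-fold in estradiol wild type, from a mean of 27.1 ± 4.68 in replicate 1 to 48.2 ± 0.768 in replicate 2 (SD, n = 3 for each). GID1B was 1.50-, 1.36- and 1.98-fold higher in the same order, from 20.9 ± 2.57 to 33.5 ± 7.01 (SD, n = 3 for each). In both genes the ratio was largest in wild type, though the groups' ratios were not tested against each other, and in neither did the arrays of the 2 replicates overlap.

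In a limma fit with group and replicate number, GID1A rose by a log2 difference of 0.58 ± 0.10 (SE, adjusted p 0.0125) and GID1B by 0.42 ± 0.094 (SE, adjusted p 0.0288), each over 3 of 3 pairs of arrays. These 2 of 4 members passed, beside 6.47% of all probe sets called higher and 4.57% called lower, and 10.9% called higher and 6.68% lower among the 12103 probe sets above background on all 6 arrays. Both calls were lost in a fit without a mean-variance trend (adjusted p 0.0766 for GID1A and 0.124 for GID1B) and when any 1 estradiol HY213 or wild-type array was left out (adjusted p 0.0560 to 0.0686 for GID1A and 0.0730 to 0.136 for GID1B). They were kept when either mock array was left out. An exact test on 3 pairs cannot go below a two-sided p of 0.25.

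SLY1 was 1.35-fold higher in replicate 2 for mock HY213, 1.13-fold for estradiol HY213 and 1.12-fold for estradiol wild type, from 45.9 ± 2.99 to 54.9 ± 3.35 (SD, n = 3 for each). The arrays of the 2 replicates did not overlap, but the log2 difference of 0.20 ± 0.11 (SE) did not pass in limma (adjusted p 0.270). GID1C was 1.13-, 1.005- and 1.40-fold higher, with a log2 difference of 0.076 ± 0.042 (SE, adjusted p 0.282) and overlapping arrays. All 4 members were thus higher in replicate 2 within each of the 3 groups, as were 22.9% of probe sets. In 3 of 4 the arrays did not overlap, as in 16.5% of all probe sets and 25.3% of those above background on all arrays. The median shift of the members was 0.31, beside -0.0066 over all probe sets and 0.012 over those above background. A larger rise than that of GID1A was found in 5.59% of the probe sets above background, and a larger rise than those of GID1B, SLY1 and GID1C in 9.80%, 22.4% and 36.9%. The pseudocount shrinks the shifts of dim probe sets most, so these shares depend in part on brightness.

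**Figure D3:**
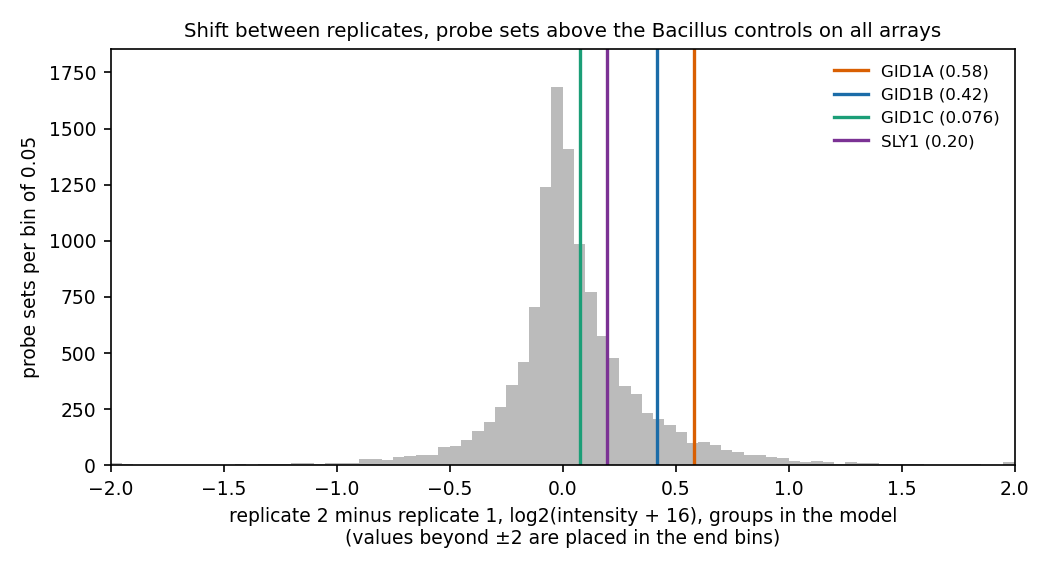
Number of probe sets (y axis, bins of 0.05) by their shift from replicate 1 to replicate 2 on the log2(intensity + 16) scale (x axis), for the 12103 probe sets above the Bacillus controls on all 6 arrays. Coloured lines mark the members, of which GID1A at 0.58 and GID1B at 0.42 lie in the upper tail.

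Several other measures on these arrays differed between the replicate numbers, though not all did. The highest Bacillus control read 5.99 to 6.22 in replicate 1 and 5.14 to 5.31 in replicate 2. The share of probe sets above it was 58.2% to 60.5% in replicate 1 and 69.0% to 72.7% in replicate 2. That share depends on the control level itself and is not a separate measure. The summed intensity of the 2 measured leaf and shoot markers, LHCB4.1 and PSAN, was 1164 to 1362 in replicate 1 and 1487 to 1749 in replicate 2. The summed intensity of the 2 measured root markers, PYK10 and EXPA7, was 1300 to 1396 in replicate 1 and 1054 to 1179 in replicate 2, and EXPA7 fell by 0.37 ± 0.073 on the log2 scale (SE, limma adjusted p 0.0188), a call lost without the mean-variance trend and in 4 of 6 fits with 1 array left out. The other 3 markers did not pass between replicates (limma adjusted p 0.0929 for LHCB4.1, 0.0950 for PSAN and 0.0765 for PYK10). The root sum was nearly all PYK10, at 1044 to 1374 over the 6 arrays, as EXPA7 read 9.99 to 23.2. The leaf and shoot sum was mostly LHCB4.1, at 908 to 1286, with PSAN at 256 to 464. No measured marker of either list was at 0. The ratio of the ubiquitin control's 3' to its 5' probe set, a measure of RNA integrity, was 1.82 to 2.29 in replicate 1 and 1.53 to 1.67 in replicate 2. For actin it was 2.01 to 3.87 and 1.86 to 2.06, and for GAPDH 2.76 to 3.54 and 3.03 to 3.29, so the replicates overlapped in both. The 25S ribosomal RNA control read 1248, 1048 and 756 on the mock, estradiol HY213 and wild-type arrays of replicate 1, the same falling order as GID1A, and 1679, 1504 and 1689 in replicate 2. Their part in the shift of the receptors was not tested.

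The rest of the gibberellin pathway was covered thinly. Of 61 other genes in the fixed lists, 11 had a probe set listed for 1 gene, and 6 of these were above background on all 6 arrays. The 5 DELLA genes, 4 SCF core subunits, 14 synthesis genes and 10 inactivation genes were not analysed here. In each of the 3 comparisons between groups, 0 of the 11 passed in limma, with or without the replicate block. For estradiol against mock in HY213, 6 of 11 had a positive log2 difference, with a median of 0.0039. Between replicates, 0 of 11 passed as higher and 1 as lower, beside 6.47% and 4.57% of all probe sets, with a median of -0.019. A count this small is near the share over all probe sets.

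SNEEZY (SLY2, AT5G48170), a close relative of SLY1 that can also target DELLA proteins, read 5.39 to 5.74 in replicate 1, below background, and 6.40 to 6.77 in replicate 2, above it. The background level was itself lower in replicate 2. SPY and SEC encode related glycosyltransferases that modify DELLA proteins. SPY read 38.8 and 36.7 in mock, 35.6 and 33.5 in estradiol HY213, and 38.3 and 42.6 in wild type. It was thus lower in estradiol HY213 than in either other group in both replicates, without passing the test (log2 differences of -0.089 from mock and -0.16 from wild type). Lower values within both replicates were found in 24.2% of all probe sets against mock and 25.4% against wild type. The share lower than both groups at once was not counted. SEC read 62.9 and 39.9, 46.8 and 35.0, and 57.6 and 42.4 in the same order. Its shift between replicates was -0.38 ± 0.10 (SE, limma adjusted p 0.0550), opposite in sign to that of the receptors.

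XERICO, a RING-type gene that gibberellin signalling is known to repress, read 44.7 and 31.7 in mock, 38.5 and 26.5 in estradiol HY213, and 35.4 and 30.2 in wild type. Its shift between replicates was -0.29 ± 0.092 (SE, limma adjusted p 0.0867). AT1G68570 (NPF3.1), a transporter of the NRT1/PTR family, read 25.6 and 36.9 in mock, 36.1 and 36.5 in estradiol HY213, and 20.0 and 30.9 in wild type. Its log2 difference between estradiol HY213 and wild type was 0.35 ± 0.19 (SE, limma adjusted p 1), and was 0.16 without the replicate 1 array of wild type and 0.54 without its replicate 2 array. It was 0.17 with a pseudocount of 64 and 0.54 with none. The sugar transporter genes SWEET13 and SWEET14, whose products can also carry gibberellin, read 5.13 to 6.47 and were at or near background.

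Of the 11 loci listed as GASA peptide genes, a family named for its response to gibberellin, 4 were measured. AT1G22690 read 239 and 182 in mock HY213, 282 and 266 in estradiol HY213, and 385 and 419 in estradiol wild type, and no pair of these groups overlapped. Groups did not overlap in 23.6% of all probe sets for estradiol against mock HY213, 23.2% for estradiol HY213 against wild type and 22% for wild type against mock. The share with no overlap in all 3 pairs at once was not counted. The log2 difference of wild type from mock was 0.90 ± 0.23 (SE, limma adjusted p 1), that of estradiol HY213 from wild type -0.53 ± 0.23 (SE), and that of estradiol HY213 from mock 0.37 ± 0.23 (SE). The last was 0.55 without the replicate 1 array of mock and 0.19 without its replicate 2 array. The unadjusted p for wild type against mock was 0.00711, and none of the 3 passed. AT2G14900 read 97.1 and 78.6, 99.7 and 53.3, and 123 and 69.3 in the same order of groups. It fell by 0.57 ± 0.14 on the log2 scale from replicate 1 to replicate 2 (SE, limma adjusted p 0.0421), a call lost without the mean-variance trend and in 4 of 6 fits with 1 array left out. AT2G39540 and AT5G59845 were below background on all 6 arrays.

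**Figure D4:**
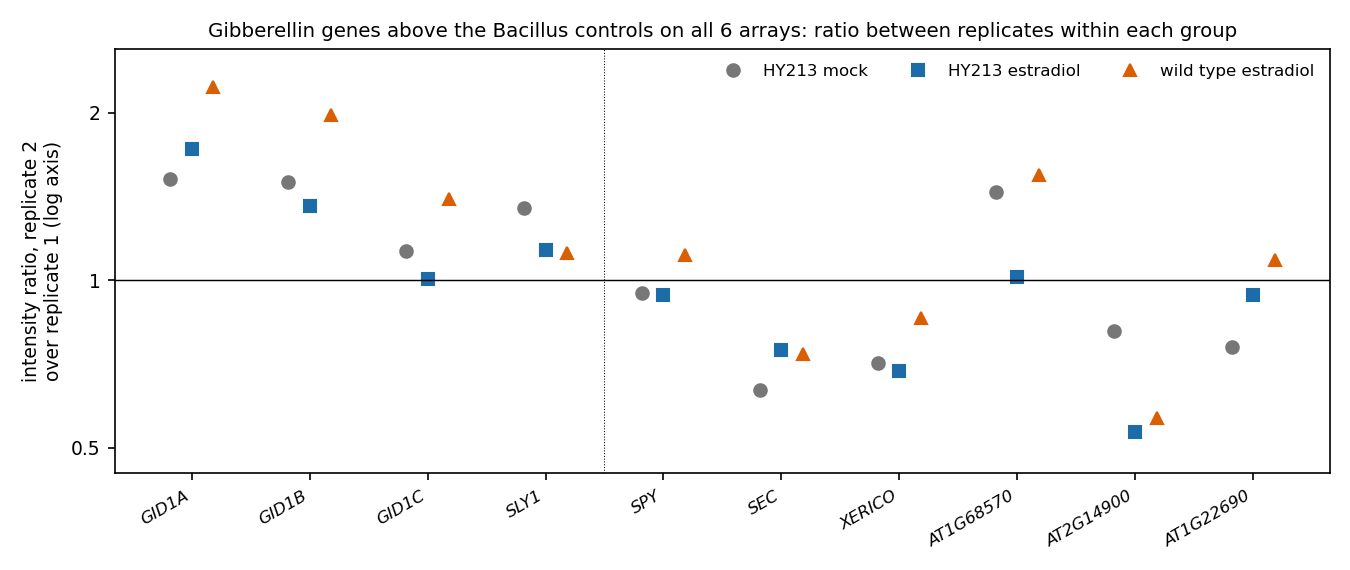
Intensity of the replicate 2 array over the replicate 1 array of the same group (y axis, log axis) for the gibberellin genes above background on all 6 arrays (x axis), with the 4 members left of the dotted line. Each point is 1 ratio, with shape and colour giving the group. The members lie at 1.005 to 2.22, while SEC, XERICO and AT2G14900 lie below 1 in all 3 groups, AT1G68570 above 1 in all 3, and SPY and AT1G22690 on both sides of 1.

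Among 6426 named probe sets above background on all arrays, those whose values over the 6 arrays were most like a member are given as a description. The closest to GID1A were ALDH2C4, an aldehyde dehydrogenase gene (r 0.998), the succinate dehydrogenase gene SDH1-1 (r 0.997) and AT1G02475 (r 0.996). ALDH2C4 read 161 and 274 in mock, 152 and 283 in estradiol HY213, and 108 and 289 in wild type, with the low replicate 1 array of wild type seen in GID1A. The closest to GID1B were AT2G43235 (r 0.996), HAT2, a homeodomain-leucine zipper gene that responds to auxin (r 0.995), and AT2G36410 (r 0.994). HAT2 read 34.95 and 61.4 in mock, 44.3 and 69.2 in estradiol HY213, and 40.0 and 100.1 in wild type, so that its wild-type replicate 2 array was the highest, as in GID1B.

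For GID1C the closest were AT2G46910 (r 0.988), AT5G12340 (r 0.985) and AT4G38980 (r 0.984). For SLY1 they were AT2G28540 (r 0.991), AT1G66820 (r 0.987) and AT1G52200 (r 0.983). An r over 0.9 with GID1A was reached by 503 of the 6426, or 7.83%, with GID1B by 4.70%, with SLY1 by 2.32% and with GID1C by 1.42%. These r values rest on 6 arrays that share the difference between replicates.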

How the data were processed

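Per the labels' protocols, biotin-labelled total RNA was measured on Affymetrix arrays. The authors deposited 1 table of intensity values on a linear scale. MAS5 and RMA are both named in the submitters' processing notes, and the one that made the values, which decides how dim probe sets spread, is not stated there. Groups and replicate numbers came from the sample titles.

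The 64 control probe sets were left out, leaving 22746, of which 13513 are listed for 1 gene and 13436 of these were matched to RefSeq (TAIR10.1). Models were fitted to log2(value + 16) with limma 3.58.1 (R 4.3.3, trended eBayes) over 6 arrays in 3 groups (3 residual degrees of freedom), with Benjamini-Hochberg adjustment over all probe sets. The pseudocount understates changes of dim genes. Precision is limited by the number of arrays. The smallest two-sided p of an exact test of 2 against 2 is 0.333. Arrays sharing a replicate number moved together about their group means (r 0.693, 0.665 and 0.822 for the 3 pairs of groups). The number was therefore taken to pair them in the fits with the replicate block. The main fit of the groups left the block out, so its SE includes the shift between replicates. The shift between replicates was fitted with group as covariate. The fits were also run on simulated data as a self-test. The planted changes were larger than any group difference of the members, so that run does not bear on the member results.

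The members and lists were chosen with earlier results of these data known. Named genes are the members, AGL24, up to 4 genes of each gibberellin list by smallest unadjusted p with the replicate block (all that pass, if any), and the 3 named probe sets most correlated with each member. EXPA7, SWEET13, SWEET14 and the control probe sets were named after their values were seen. Alternatives were quantile and median scaling, pseudocounts of 1, 64 and none, the dimmest 25% left out, no variance trend, only the 4 arrays compared, the replicate block, and each array left out.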

Additional observations from a re-analysis of the deposited data

How the results depend on the processing

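In the 3 comparisons between groups, 0 of 192 alternative fits of the 4 members passed (lowest adjusted p 0.846). Direction held in the 10 settings that did not leave out a single array (1 of which used only the 4 arrays compared), and turned in 16 fits that left 1 array out, where the difference between replicates enters an unbalanced fit. Leaving out each array in turn, the log2 difference of estradiol from mock HY213 ranged from -0.31 to 0.24 for GID1A, 0.00025 to 0.34 for GID1B, -0.085 to -0.026 for GID1C and -0.12 to 0.21 for SLY1. For estradiol HY213 against wild type the ranges were -0.28 to 0.49, -0.40 to 0.24, -0.15 to 0.016 and 0.0076 to 0.15. For wild type against mock they were -0.52 to 0.25, -0.071 to 0.57, -0.071 to 0.095 and -0.20 to 0.13. Probe sets called stayed at 0 with the replicate block. They were 1 and 1 in the first 2 comparisons with the block and no pseudocount, 0 to 13 and 0 to 16 with 1 array left out, and 0 in the third. The block changed no call of a member. It gave the same differences, as it must in a balanced design (-0.035, 0.17, -0.055 and 0.045 for estradiol against mock).

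Between replicates, 2510 probe sets were called, 431 without a variance trend and 637 to 4062 with 1 array left out. Without the trend, which cannot change a difference, GID1A kept 0.58 and GID1B 0.42 but lost their calls (limma adjusted p 0.0766 and 0.124). With 1 array left out, which leaves 1 degree of freedom fewer, GID1A ranged from 0.49 to 0.66, GID1B from 0.31 to 0.49, GID1C from 0.030 to 0.11 and SLY1 from 0.13 to 0.23. In 6 of 7 settings that kept every array both calls held, with GID1A from 0.30 to 0.85 and GID1B from 0.20 to 0.67. Alternatives for AGL24, AT1G22690, AT1G68570, AT2G14900 and EXPA7 were added after their values were seen, and none turned in direction. Distance from background limits GID1C, SNEEZY and the SWEET genes.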

Other observations

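The GID1 proteins belong to the carboxylesterase-like (CXE) family but are receptors without that enzyme activity. Of the other family members named CXE, 3 had a probe set listed for 1 gene, and they were picked by name after the data were seen. CXE16 read 8.28 to 8.78 in replicate 1 and 9.27 to 10.2 in replicate 2, with a shift between replicates of 0.062 on the log2(value + 16) scale (limma adjusted p 0.366). CXE18 read 11.7 and 10.4 in mock HY213, 12.4 and 11.6 in estradiol HY213, and 7.59 and 9.86 in estradiol wild type. It was thus lowest in wild type in both replicates (limma adjusted p 0.998 for estradiol HY213 against wild type with the replicate block). Wild type was lower within both replicates in 27.4% of all probe sets against estradiol HY213 and in 24.2% against mock. The share in which it was lower than both at once was not counted. CXE20 read 5.88 to 7.32 and was above background on 4 of 6 arrays.

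Of the 8 protein-coding genes that flank the members in RefSeq, 4 had a probe set listed for 1 gene. They read 4.75 to 8.51, at or near background, and the lowest adjusted p of their shift between replicates was 0.343 in limma.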
